A study of Homo sapiens with 30 samples.

Results

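The OPM2 cells that carry a FOXM1c vector on a FOXM1-edited background (KO1R) were compared with the unedited OPM2 cells (WT), 3 libraries against 3, to see which transcripts still differed from unedited cells, or lay beyond them, once FOXM1 transcript stood above its unedited level. These 6 libraries are part of a series of 30. OPM2 is a human multiple myeloma cell line, that is, a tumour line of plasma cells. KO1R cells, by their name, descend from KO1, a single clone picked by dilution after electroporation of Cas9 protein with a guide to FOXM1 exon 2. They carry that edit as well as a lentiviral vector for the FOXM1c isoform, and were sorted on GFP. WT cells carry neither the edit nor a vector. The same clone with an empty vector (KO1EV) and without any vector (KO1), and a further clone (KO2), are given only beside these values. All cells grew in the same medium, and poly-A RNA was sequenced. A difference between KO1R and WT can therefore belong to FOXM1c, to the vector or the sort, or to the clone, and these cannot be told apart in this comparison. The labels do not say whether the 3 libraries of a group come from separate cultures, so p-values measure a spread between libraries that may be technical. In bulk RNA, fewer cells with a transcript and less of it per cell cannot be told apart.

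Values are FPKM, fragment counts scaled by transcript length and by library size. Of 16407 genes in the OPM2 table, 10021 reached 1 FPKM in at least 3 of the 6 libraries and were tested, and 6386 did not. Both groups looked like plasma cells: the receptor gene TNFRSF17 (BCMA) stood at 345.76 to 367.5 FPKM in KO1R and 336.91 to 352.5 FPKM in WT, and XBP1 at 1304.83 to 1385.31 FPKM in KO1R and 1368.18 to 1410.77 FPKM in WT. MS4A1 was listed at 0 in all 6 libraries, and PAX5, CD3E, EPCAM and COL1A1 did not exceed 0.15 FPKM in any. Summed over the members in the table, the 7 epithelial markers reached 0.62 to 0.94 FPKM in KO1R and 0.56 to 0.72 FPKM in WT, the 11 T cell markers 1.67 to 1.92 FPKM in KO1R and 2.45 to 3.73 FPKM in WT, and the 11 B cell genes 4.34 to 5 FPKM in KO1R and 4.73 to 5.14 FPKM in WT. The 7 myeloid markers summed to 75.79 to 87.46 FPKM in KO1R and 73.38 to 84.04 FPKM in WT, nearly all of it CST3, and the 8 stromal markers to 1474 to 1530 FPKM in KO1R and 2030 to 2151 FPKM in WT, nearly all of it VIM, which tumour cell lines also express. Column totals were 545086 to 566016 in KO1R and 528863 to 537789 in WT. Depth cannot be read from such totals and is unknown. The median log2 fold change over all tested genes was -0.00373. Libraries 3 of KO1EV and of KO2 stood apart from their groups, with SDs over genes of 0.269 and 0.536 on the log2 scale against 0.0982 to 0.137 in the 6 libraries compared. They enter the values given for those groups but not the test of KO1R against WT.

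FOXM1 is a forkhead transcription factor that accumulates in the late part of the cell cycle and, together with the B-MYB and MuvB proteins, drives genes for entry into mitosis and for chromosome segregation. FOXM1c is an isoform that activates transcription. In myeloma, high FOXM1 is known from aggressive disease. The target sites of the 3 guides were located in GENCODE v29 on GRCh38, all in exon 2 of FOXM1 on chromosome 12, in 4 of its 10 annotated transcripts. They are shown because KO1R cells come from a clone made with 1 of them, although the sources used here do not say which guide gave KO1. The capitals mark the PAM, the bases that Cas9 needs beside its target.
guide 1: ttgagaatcagtggccgacgGGG
guide 2: tgagaatcagtggccgacggGGG
guide 3: taatgaaaactagcccccgtCGG
Guides 1 and 2 read the plus strand, at chr12:2874444-2874466 and chr12:2874445-2874467, and lie wholly in coding sequence. Guide 3 reads the minus strand, which is the strand of the gene, at chr12:2874458-2874480, and starts 2 bases before the start codon. The 3 sites overlap.

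FOXM1 transcript was the check of the labels. It stood at 262.89, 278.01 and 291.72 FPKM in the KO1R libraries, against 175.26, 175.63 and 176.8 FPKM in the WT libraries. Every KO1R library lay above every WT library, with a log2 fold change of 0.65 ± 0.04 (SE) and an adjusted p of 5.9e-07 by limma. In KO1 the libraries stood at 91.24 to 93.28 FPKM and in KO1EV at 105.33 to 108.77 FPKM, so transcript from the edited gene was still counted in the clone. The values do not separate transcript of the edited gene from that of the vector.

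A large share of genes still differed, mostly by little. At an adjusted p below 0.05, 41% of tested genes were called: 2035 genes were higher (20.3%) and 2076 lower (20.7%) in KO1R than in WT. At a change of at least 1.5-fold as well, 3.91% were called, 196 higher (1.96%) and 196 lower (1.96%). Among the 9808 genes at 1 FPKM or more in all WT libraries, 147 were that much higher (1.5%) and 196 lower (2%). The 196 higher genes thus take in some that were not at that level in every WT library. The lower ones take in genes under 1 FPKM in KO1R, such as MAGED1. Counts at 2-fold were not split in this way. The median absolute log2 fold change of the called genes was 0.278, and 67 genes were at least 2-fold higher and 32 at least 2-fold lower on the log2(FPKM + 1) scale. For comparison, 55.1% of genes were called in KO1 against WT and 29.6% in KO1EV against WT, comparisons that use the same WT libraries. When all 5 OPM2 groups were fitted together, 639 genes passed as higher and 843 as lower. Leaving libraries 3 of KO1EV and KO2 out of that fit gave 4533 genes in all. Of 136 called genes that the naming rule picked, 52 missed the threshold in the fit of all 5 groups, and only DDIT3 did so once those 2 libraries were left out. Fold changes fell with transcript length (Spearman's rho across 9980 genes -0.256, a description, since genes are not independent), and removing this trend moved the calls of a list by 6 at most in either direction.

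Part of the difference was arranged along the chromosomes. Genes were placed in RefSeq order (GRCh38.p14, used only for which genes neighbour each other) and read in windows of 25 neighbours. The windows and their limits were chosen after the data were seen, and no test was made. Of 410 windows, 12 had a median log2 fold change of 0.15 or more and 24 of -0.15 or less, 36 in all. Of these, 24 formed 5 runs of at least 3 neighbouring windows and 12 stood in no run. The run of 187 tested genes from CHCHD6 to RPL35A at the end of chromosome 3 had a median of 0.32, with 71.1% of its genes called higher and 3.74% lower. Its median was 0.32, 0.29 and 0.34 in the 3 KO1R libraries, each against the WT mean, and between -0.02 and 0.03 in the WT libraries. It was 0 in KO1, 0.08 in KO1EV and -0.05 in KO2, so its median was furthest from 0 in KO1R. The difference in this run between KO1R and the other groups was not tested.

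The other runs were lower. On chromosome 22 the 75 genes from IL17RA to KREMEN1 had a median of -0.44 in KO1R, with 77.3% called lower, and of -0.3 in KO1, -0.17 in KO1EV and 0.31 in KO2. On chromosome 18 the 125 genes from USP14 to TMX3 had a median of -0.22 in KO1R, with 61.6% called lower, and of -0.14 in KO1, -0.07 in KO1EV and 0.14 in KO2. On chromosome 7 the 125 genes from FAM185A to ATP6V0E2 had a median of -0.22 in KO1R, with 64.8% called lower, and of 0.02 in KO1, -0.07 in KO1EV and -0.34 in KO2. On chromosome 14 the 75 genes from TIMM9 to NEK9 had a median of -0.23 in KO1R, with 58.7% called lower, and of -0.02 in KO1, -0.06 in KO1EV and 0.18 in KO2. In all 4 runs each KO1R library was below each WT library by its median. The 5 runs held 587 genes, and among them 7.16% were at least 1.5-fold lower and 4.26% at least 1.5-fold higher, against 1.64% and 1.78% of the 9407 genes outside. DNA copy number was not analysed here. Windows in no run could be as far from 0: chromosome 22 had 6 of its 10 windows past the limit, 3 of them outside the run, with medians of -0.41, -0.39 and -0.5. Genes of the lists or of the naming rule that lie in a run, or in another window past the limit, are named as such below.

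**Figure D1:**
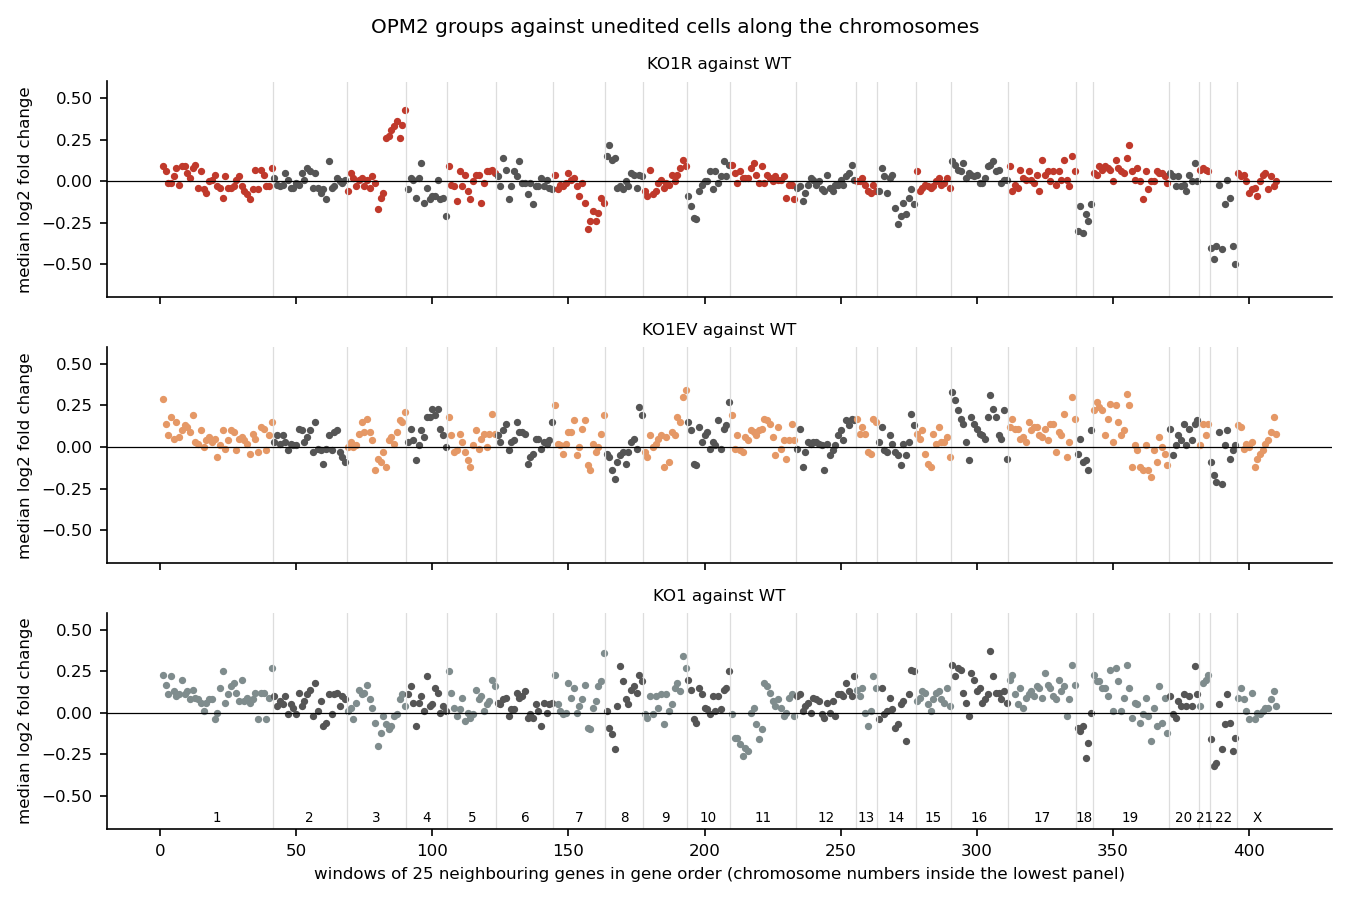
Each point is the median log2 fold change against WT (vertical axis, log2(FPKM + 1) scale) of a window of 25 neighbouring tested genes, in gene order along chromosomes 1 to 22 and X (horizontal axis, alternating shades), for KO1R, KO1EV and KO1. The windows at the end of chromosome 3 stand well above 0 in the KO1R panel, where the run's median is 0.32, and the lowest window, at -0.5, is the last of chromosome 22 in that panel.

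Genes of late cell cycle, the class FOXM1 is best known to drive, were more often higher than lower in KO1R. Of 54 listed, all tested, 23 were higher and 4 lower than in WT, beside 20.3% and 20.7% of all tested genes, and the list's median log2 fold change was 0.11. Besides FOXM1 itself none reached 1.5-fold. CCNB1, cyclin B1, the partner of CDK1 at entry into mitosis, stood at 188.24, 184.63 and 185.04 FPKM in KO1R, against 121.07, 127.14 and 125.02 FPKM in WT. The groups did not overlap (log2 fold change 0.58 ± 0.04, adjusted p = 5.63e-07 by limma). CCNB2, cyclin B2, stood at 158.45, 153.94 and 149.24 FPKM in KO1R, against 109.6, 103.87 and 107.48 FPKM in WT, again with no overlap (0.52 ± 0.04, adjusted p = 2.53e-06 by limma). These cyclins had come from different levels in the clone: in KO1, CCNB1 was 0.89 below WT on the log2 scale, while CCNB2 differed from WT by 0.01.

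NUSAP1, a spindle-associated protein, was 0.49 ± 0.04 higher. ECT2, which is needed for cytokinesis, was 0.51 ± 0.05 higher, but it is a gene of the chromosome 3 run. NEK2, a centrosomal kinase, stood at 62.93 to 69.27 FPKM in KO1R against 49.52 to 53.85 FPKM in WT. AURKA, BIRC5 (survivin), CENPF and CDC20 were 0.23 to 0.29 higher in KO1R, and their log2 fold changes in KO1 against WT were 0.14 to 0.34. PLK1, the kinase that activates CDC25 phosphatases, stood at 169.39, 170.7 and 161.96 FPKM in KO1R, against 140.17, 154.37 and 153.11 FPKM in WT. That difference was small (0.17 ± 0.05, adjusted p = 0.0137 by limma) and missed the threshold without KO1R library 2 (adjusted p = 0.0654). In KO1, PLK1 was 1.17 below WT. With all 5 OPM2 groups in 1 fit, AURKA, BIRC5, CENPF, CDC20 and PLK1 missed the threshold (adjusted p 0.0551 to 0.329 by limma).

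Other late cell cycle genes did not pass the test. CDC25B, the phosphatase that starts CDK1 activation, stood at 101.72, 107.5 and 104.74 FPKM in KO1R, against 94.51, 96.09 and 100.61 FPKM in WT (0.11 ± 0.04, adjusted p = 0.0601 by limma), where KO1 had averaged 36.22 FPKM. AURKB (0.12, adjusted p = 0.0807), TOP2A (0.04, adjusted p = 0.548) and MYBL2 (-0.01, adjusted p = 0.799), all by limma, did not pass either. The 4 lower members were LIN54, MKI67, GTSE1 and CKAP2, of which GTSE1 lies in a low window of chromosome 22, with a median of -0.39. MKI67, the proliferation marker Ki-67, varied most: 24.65, 28.8 and 37.19 FPKM in KO1R against 33.71, 42.93 and 39.67 FPKM in WT, with overlap. Its log2 fold change of -0.36 ± 0.12 (adjusted p = 0.033 by limma) missed the threshold without KO1R library 1 or 2 or WT library 2 or 3 (adjusted p 0.0795 to 0.136 by limma). It also missed it with the length trend removed (adjusted p = 0.092) and with no filter on low values (adjusted p = 0.133).

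**Figure D2:**
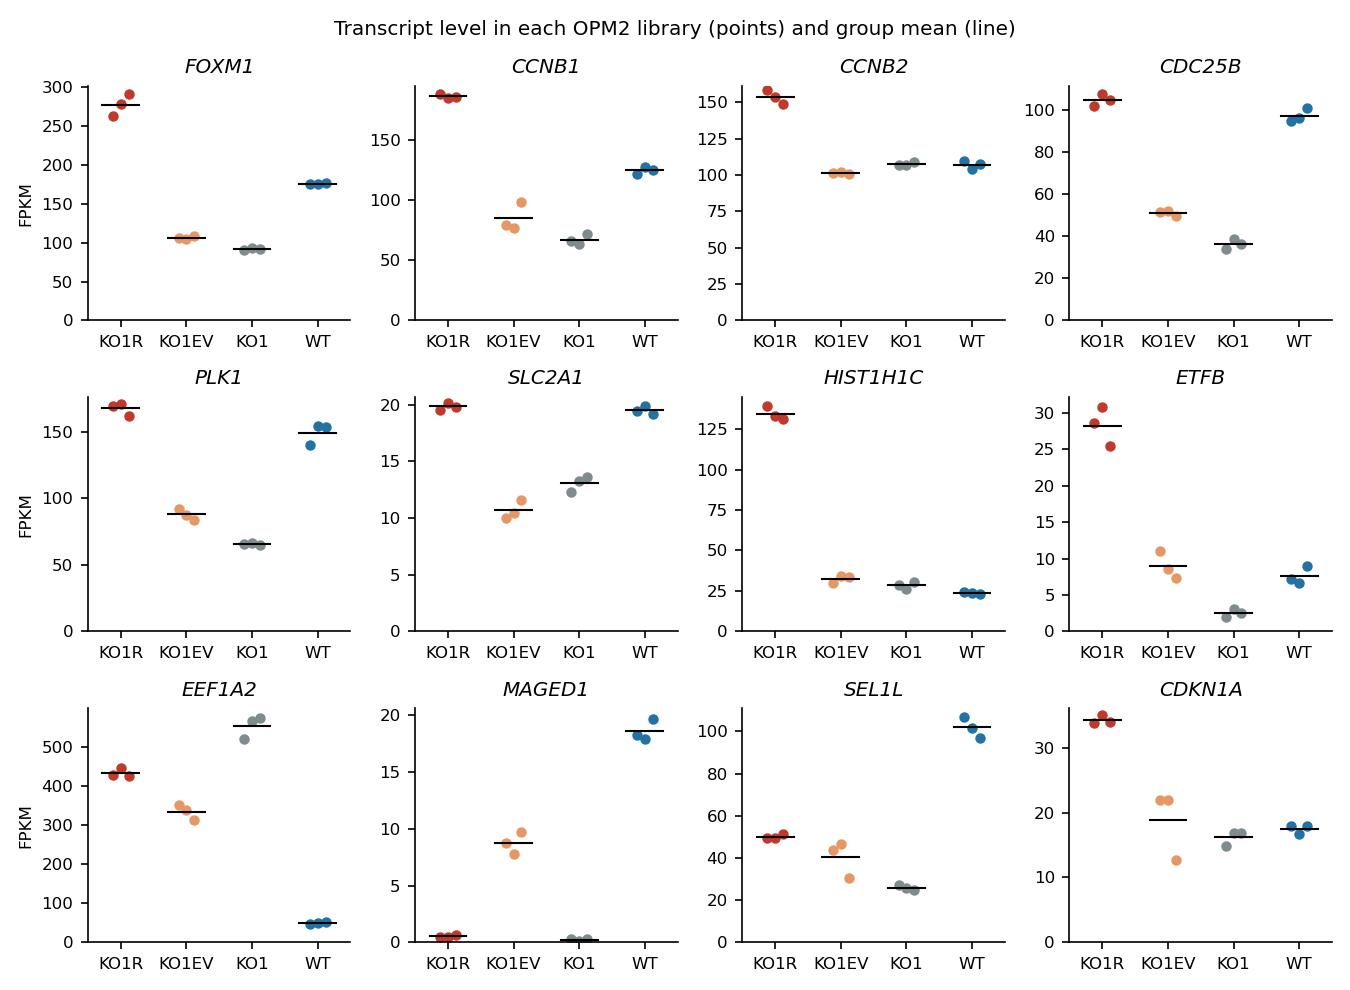
FPKM (vertical axes, from 0) of 12 genes in each library (points) of KO1R, KO1EV, KO1 and WT, with the mean of each group (line). FOXM1, CCNB1 and ETFB stand above WT in KO1R and below it in KO1, CDC25B and SLC2A1 are close to WT in KO1R, and EEF1A2 and MAGED1 lie on the same side of WT in KO1R and in KO1.

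Promoters of late cell cycle genes commonly hold a CHR element (TTTGAA) and CCAAT boxes, the elements read by the MuvB complex that recruits FOXM1, and by NF-Y. RefSeq promoter windows (GRCh38.p14, 250 bases before to 50 after the start) existed for 48 of the 54 genes. A gene can have several windows, and these had 64. TTTGAA was found on either strand in 38 of 64 windows, against 15.2% of all 35116 windows, and CCAAT in 44 of 64, against 34.6%. The forkhead letters TAAACA were found in 3 of 64, against 12.3%. A match is a description of letters and not of binding. The windows of CCNB1, the cyclin furthest above WT, and PLK1, which came back from far below it, are shown with these motifs in capitals.
CCNB1: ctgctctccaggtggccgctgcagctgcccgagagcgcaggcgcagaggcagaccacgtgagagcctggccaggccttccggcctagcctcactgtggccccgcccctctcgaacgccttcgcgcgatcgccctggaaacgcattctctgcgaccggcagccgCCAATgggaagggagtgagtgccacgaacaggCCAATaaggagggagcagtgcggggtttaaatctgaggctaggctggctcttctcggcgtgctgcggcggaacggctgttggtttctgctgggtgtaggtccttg
PLK1: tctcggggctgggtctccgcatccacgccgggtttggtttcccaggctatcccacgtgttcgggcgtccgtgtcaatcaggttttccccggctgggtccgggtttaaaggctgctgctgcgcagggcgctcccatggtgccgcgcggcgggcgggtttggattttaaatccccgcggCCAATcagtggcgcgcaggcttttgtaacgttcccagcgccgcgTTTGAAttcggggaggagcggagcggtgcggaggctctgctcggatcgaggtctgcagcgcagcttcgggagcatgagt
The CCNB1 window (chr5:69166900-69167199, plus strand) holds CCAAT in 2 places and no TTTGAA. The PLK1 window (chr16:23678639-23678938, plus strand) holds 1 of each. Both genes were called lower than WT in KO1 and higher in KO1R.

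Genes of the G1/S transition were split. Of 47, all tested, 11 were higher and 12 lower, near the 20.3% and 20.7% of all tested genes, with a median of 0. The leading members were lower: CDC45, a part of the replicative helicase, stood at 15.92, 17.14 and 15.04 FPKM in KO1R, against 27.39, 25.52 and 25.91 FPKM in WT (-0.68 ± 0.06, adjusted p = 4.06e-06 by limma). It was the only member past 1.5-fold, and it belongs to the chromosome 22 run. MCM5, another helicase subunit, was lower by -0.58 ± 0.05 and lies in another low window of chromosome 22, with a median of -0.41. TYMS, thymidylate synthase, was lower by -0.33 ± 0.04 and lies in the chromosome 18 run, while RFC4 and MCM2, higher by 0.34 and 0.33, lie in the chromosome 3 run. Outside all windows past the limit, 9 of 41 members were higher and 9 lower. UHRF1, which brings DNA methyltransferase to new DNA, was 0.45 ± 0.06 higher.

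Some genes that moved far in KO1 stood at the WT level in KO1R. The rule took the 4 highest and 4 lowest in KO1 that were within 0.2 of WT (log2) in KO1R, so their closeness to WT is how they were chosen. TRIB3, a pseudokinase of the stress response, stood at 66.39, 62.57 and 63.16 FPKM in KO1R, against 58.55, 59.89 and 62.22 FPKM in WT, where KO1 averaged 20.89 FPKM. CDC25B, the protease inhibitor SLPI and SHISA3 made up the rest of those low in KO1. DHRS2, SMARCD3 (a chromatin remodelling subunit), GPSM1 and MYRF made up those high in KO1. SMARCD3 averaged 9.93 FPKM in KO1 and stood at 1.27 to 1.56 FPKM in KO1R, against 1.31 to 1.97 FPKM in WT. The glucose transporter SLC2A1 showed the same closeness, at 19.55, 20.16 and 19.8 FPKM in KO1R against 19.43, 19.9 and 19.15 FPKM in WT (0.02 ± 0.05, adjusted p = 0.717 by limma), and so did hexokinase HK2 (-0.09 ± 0.04, adjusted p = 0.12 by limma).

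Other genes lay beyond WT on the side opposite to KO1. ETFB, the beta subunit of the flavoprotein that passes electrons from fatty acid oxidation to the respiratory chain, stood at 28.66, 30.74 and 25.39 FPKM in KO1R, against 7.23, 6.63 and 8.92 FPKM in WT (1.77 ± 0.09, adjusted p = 8.67e-08 by limma). KO1 averaged 2.533 FPKM and KO1EV 9 FPKM, so KO1R was the highest of these groups and did not overlap any of them. FAM167A (0.74 ± 0.05), the survival kinase gene PIM1 (0.61 ± 0.07), CCNB1 and TROAP, a spindle protein (0.52 ± 0.07), were also above WT in KO1R and below it in KO1, besides FOXM1 itself. FAM167A lies in a window of chromosome 8 past the limit, with a median of 0.15. PIM1 stood at 8.3, 9.09 and 8.75 FPKM in KO1R, against 5.02, 5.16 and 5.89 FPKM in WT.

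In the other direction, ANTXR2 (-0.7 ± 0.06), IQGAP3 (-0.62 ± 0.1), the amino acid transporter SLC7A7 (-0.54 ± 0.08), EPHX1, an epoxide hydrolase (-0.52 ± 0.06), and the Mediator subunit MED12 (-0.5 ± 0.1) were lower than WT in KO1R and higher in KO1. EPHX1 stood at 19.01, 17.65 and 16.8 FPKM in KO1R, against 24.34, 26.85 and 26.54 FPKM in WT, where KO1 averaged 59.83 FPKM. Every gene named in this group lay on 1 side of the WT libraries in all KO1R libraries. FAM167A, TROAP, ANTXR2 and MED12 missed the threshold when all 5 OPM2 groups were fitted together (adjusted p 0.0744 to 0.382).

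Many of the largest differences from WT were already present in the clone. Histone genes among the 10 highest were not of this kind: HIST1H2BK, HIST2H2AA3, HIST2H2AA4 and HIST1H1C, described below. Their log2 fold changes were 2.46 to 2.6 in KO1R and 0.25 to 0.48 in KO1. EEF1A2, the elongation factor paralog of muscle and neurons, stood at 427.25, 445.54 and 426.37 FPKM in KO1R, against 47.38, 49.61 and 52.6 FPKM in WT (3.09 ± 0.05, adjusted p = 2.02e-12 by limma), and averaged 552.7 FPKM in KO1. GAS7, a cytoskeletal adaptor, stood at 23.94, 26.09 and 26.81 FPKM in KO1R, against 0.62, 0.72 and 0.85 FPKM in WT (3.94 ± 0.07), and 9.343 FPKM on average in KO1. KCNN3, a calcium-activated potassium channel, stood at 15.45, 16.14 and 18.68 FPKM in KO1R, against 0.97, 0.9 and 0.81 FPKM in WT (3.23 ± 0.08), with 4.093 FPKM in KO1. GAS7 and KCNN3 were under 1 FPKM in every WT library and passed the filter through KO1R, so their direction against WT is not read. At both genes KO1R stood above KO1, the clone without a vector.

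PDIA2, a disulfide isomerase (2.38 ± 0.07), VAV1, a guanine nucleotide exchange factor of blood cells (2.38 ± 0.06), LSP1, a leukocyte actin-binding protein (2.27 ± 0.07), lipoprotein lipase LPL (1.92 ± 0.07), the metallothionein MT1E (1.9 ± 0.08) and RAP1GAP2 (1.81 ± 0.08) were higher in KO1R and in KO1. LPL, MT1E and RAP1GAP2 were not among the 10 highest, and genes kept from KO1 were named for having the same direction there. LPL lies in a window of chromosome 8 past the limit, with a median of 0.22. LSP1 stood at 19.74, 21.67 and 19.36 FPKM in KO1R, against 3.17, 3.59 and 3.48 FPKM in WT, and averaged 7.89 FPKM in KO1. MT1E was the other way round, at 39.62 to 41.89 FPKM in KO1R, against 8.94 to 12.01 FPKM in WT, and 77 FPKM in KO1. None of these genes overlapped between KO1R and WT.

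Some of the lowest genes were nearly silent in KO1R. MAGED1, an adaptor of ubiquitin ligases, stood at 0.49, 0.46 and 0.63 FPKM in KO1R, against 18.25, 17.87 and 19.66 FPKM in WT (-3.68 ± 0.07, adjusted p = 9.79e-12 by limma). NMRAL1, a redox sensor protein, stood at 0.65, 0.54 and 0.67 FPKM in KO1R, against 8.8, 8.63 and 11.25 FPKM in WT (-2.7 ± 0.09). GNG10, a G protein gamma subunit, was listed at 0 in 2 KO1R libraries and at 0.23 FPKM in the other, against 6.12, 5.31 and 6.26 FPKM in WT. These genes and HLTF, a DNA helicase-like ubiquitin ligase (-2.12 ± 0.08), were also low in KO1, at means of 0.25, 0.85, 0.4367 and 0.4633 FPKM. MAGED1, NMRAL1, GNG10 and HLTF were under 1 FPKM in every KO1R library. They passed the filter through WT, so their direction against WT is not read.

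The empty-vector cells differed here from the other cells of the clone. KO1EV averaged 8.76 FPKM of MAGED1, 5.327 of NMRAL1, 2.697 of GNG10 and 5.703 of HLTF, each between KO1R and WT and each above KO1R (adjusted p 1.2e-05 to 0.000517 by limma, KO1R against KO1EV, where 13.8% of genes were called). In that comparison these genes passed the filter through KO1EV, so the direction there is not read either. The 3 KO1EV libraries were alike, with MAGED1 at 8.73, 7.81 and 9.74 FPKM. HLTF lies in the chromosome 3 run, whose median was higher in KO1R, and was itself nearly silent there. What sets KO1EV apart at these genes was not tested.

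Others of the lowest genes were still expressed in KO1R. GLIPR1 stood at 5.62, 5.59 and 5.74 FPKM in KO1R, against 50.64, 48.15 and 48.27 FPKM in WT (-2.91 ± 0.05). The chemokine CCL3, which myeloma cells secrete and which activates osteoclasts, stood at 6.05, 5.86 and 6.32 FPKM in KO1R, against 36.06, 36.38 and 39.04 FPKM in WT (-2.43 ± 0.05). TSPAN7, a tetraspanin, stood at 20.47, 23.07 and 21.04 FPKM in KO1R, against 104.72, 108.01 and 109.05 FPKM in WT (-2.27 ± 0.05). All 3 genes were less far below WT in KO1, at 16.3, 10.33 and 44.58 FPKM. KO1EV averaged 7.61, 7.653 and 31.94 FPKM, with its library 3 the lowest at each gene. KO1R did not pass the test against KO1EV at any of them (adjusted p 0.105 to 0.229 by limma). GSTM1, a glutathione transferase (-2.12 ± 0.1), the lectin receptor CLEC7A (-1.58 ± 0.07) and cortactin CTTN (-1.35 ± 0.08) completed the 10 lowest.

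**Figure D3:**
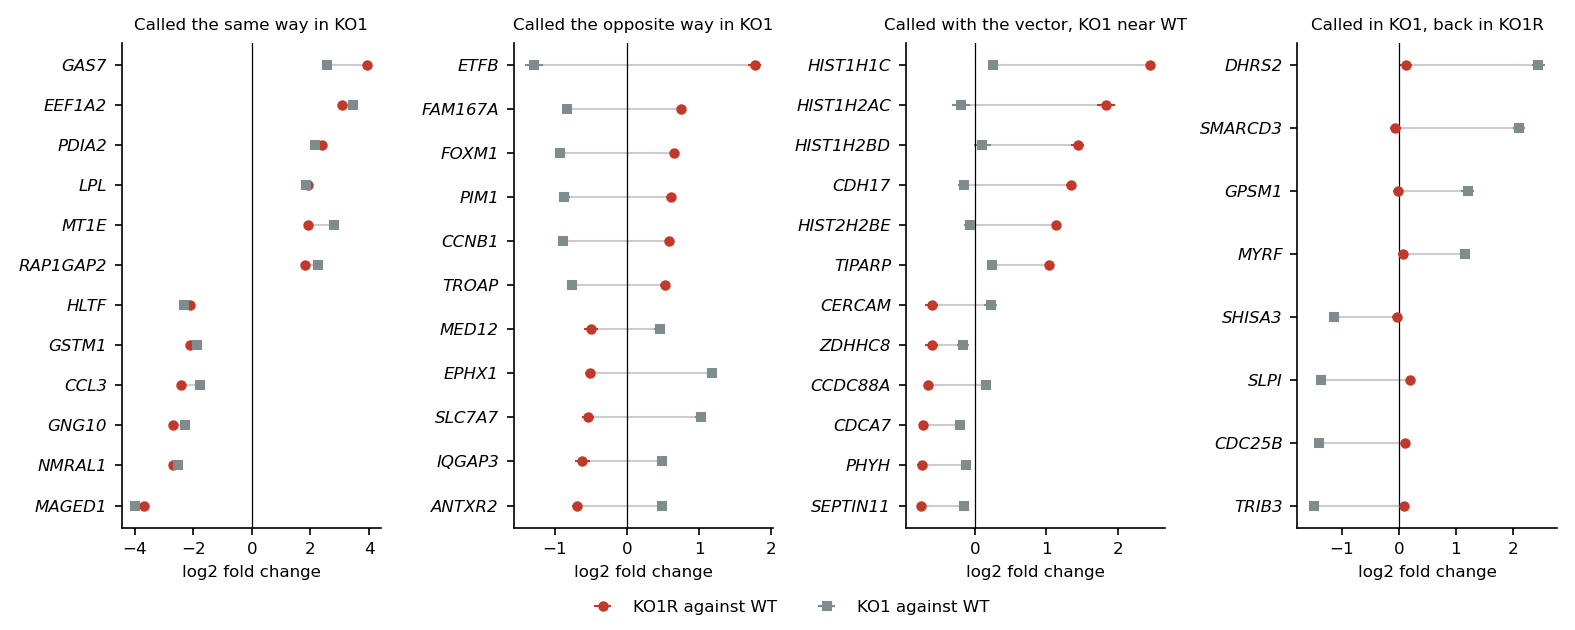
Log2 fold change against WT (horizontal axes, log2(FPKM + 1) scale, bars are SE) in KO1R (circles) and in KO1 (squares) for genes named by the rule, in 4 panels by how the 2 values relate. EEF1A2 and MAGED1 lie together in both, ETFB and CCNB1 lie on opposite sides of 0, HIST1H1C is far from 0 only in KO1R, and TRIB3 and DHRS2 are far from 0 only in KO1. Both comparisons use the same WT libraries.

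Many histone genes were far higher in KO1R than in WT, and much less so in the clone without the FOXM1c vector. Replication-dependent histone genes are expressed in S phase, and most of their messages end in a stem-loop without a poly-A tail, so poly-A libraries count mainly their minor polyadenylated forms. HIST1H1C, a linker histone H1, stood at 138.99, 132.96 and 130.94 FPKM in KO1R, against 24.16, 23.78 and 22.94 FPKM in WT (2.46 ± 0.04, adjusted p = 5.82e-12 by limma), and at 28.42 FPKM in KO1 and 32.67 FPKM in KO1EV. HIST1H2BK, an H2B gene, stood at 87.4, 83.73 and 83.07 FPKM in KO1R, against 13.68, 12.09 and 13.62 FPKM in WT (2.6 ± 0.05, adjusted p = 1.85e-11 by limma). HIST2H2AA3, an H2A gene with the same values as its near-identical copy HIST2H2AA4, from which it cannot be separated, stood at 70.71, 69.47 and 68.35 FPKM in KO1R, against 9.22, 12.19 and 11.45 FPKM in WT (2.57 ± 0.08, adjusted p = 6.92e-10 by limma). All 3 KO1R libraries lay far above every library of WT, KO1 and KO1EV at these genes.

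Of 65 listed histone genes, 52 were in the table and 21 were tested. Of these 21, 14 reached 1 FPKM in all 3 WT libraries, and 11 of the 14 were higher in KO1R, all by at least 1.5-fold, beside 1.5% of the 9808 genes that met the same limit. Another 6 of the 21 reached 1 FPKM in every KO1R library but not in every WT library, so the filter let them in where they were high and their direction is not read. Over all 21 tested, 17 were called higher and none lower by limma, a count that takes in genes of that kind and is not read either. With no filter on low values 25 of the 52 were higher and none lower, where 1940 genes were higher and 1996 lower in all. Of the 52, 22 stayed under 1 FPKM in every OPM2 library, so this count is not read either. HIST1H2AC (1.84 ± 0.13), HIST1H2BD (1.44 ± 0.09) and HIST2H2BE (1.14 ± 0.06) were among the higher. The 4 that did not pass were HIST1H3H, HIST1H4K, HIST2H2AC and HIST1H4C, with log2 fold changes of 0.22 to -0.2. HIST1H4C stood at 5.83 to 7.31 FPKM in KO1R and 6.47 to 10.24 FPKM in WT, with overlap, while the H4 gene HIST2H4A, whose values equal those of its copy HIST2H4B, was 1.01 higher. Histone transcripts are short, with a median of 642 bases against 3718 for all tested genes. With the length trend removed 17 of the 21 were again called higher, with a median of 0.94 in place of 1.01. Both medians also take in the genes that the filter let in through KO1R. In KO1 against WT, 5 of 16 tested were higher and 2 lower, beside 35.7% and 19.4% of all genes.

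**Figure D4:**
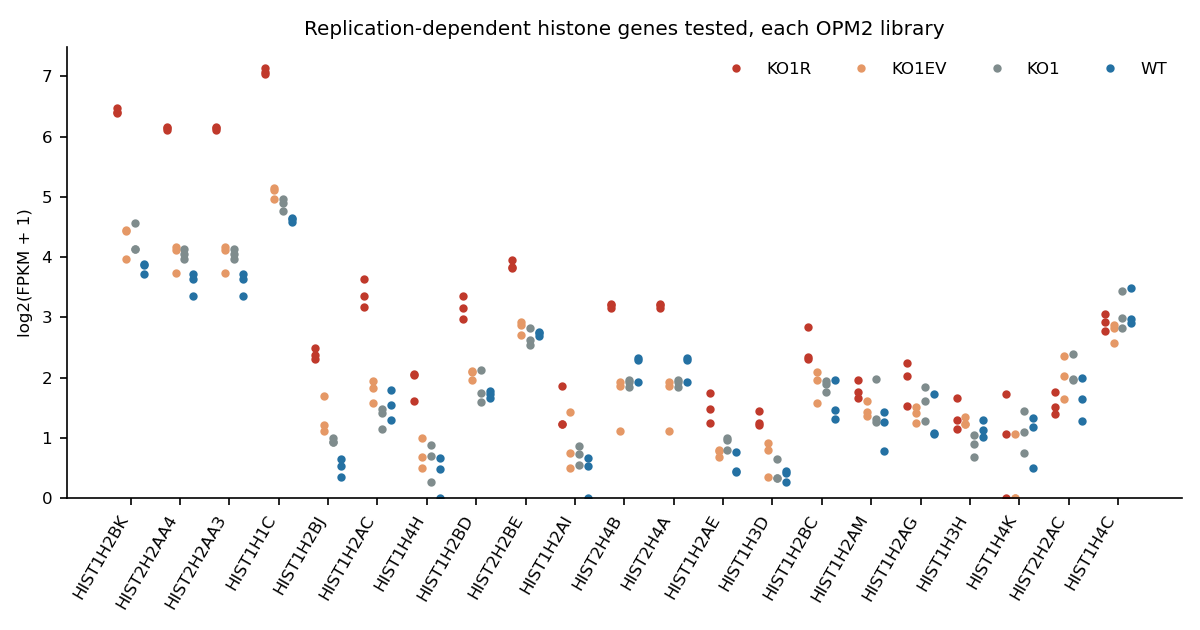
log2(FPKM + 1) (vertical axis) of the 21 histone genes tested (horizontal axis, from the largest to the smallest log2 fold change of KO1R over WT) in each library of KO1R, KO1EV, KO1 and WT. At the left-hand genes, among them HIST1H2BK and HIST1H1C, KO1R stands above the other 3 groups, which lie close to each other, and at HIST1H4C, on the right, all 4 groups overlap.

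RefSeq promoter windows, 23 in all, existed for 20 of the 21 tested histone genes. CCAAT was found in 19 of 23, against 34.6% of all windows, TATAAA in 18 of 23, against 11.5%, and the octamer ATTTGCAT, read by POU factors at H2B genes, in 11 of 23, against 1.77%, all on either strand. TTTGAA was found in 5 of 23, against 15.2%, and TAAACA in 5 of 23, against 12.3%. The windows of the 2 histone genes that led the group by significance are shown with these motifs in capitals. TAAACA overlaps TATAAA at 1 place.
HIST1H2BK: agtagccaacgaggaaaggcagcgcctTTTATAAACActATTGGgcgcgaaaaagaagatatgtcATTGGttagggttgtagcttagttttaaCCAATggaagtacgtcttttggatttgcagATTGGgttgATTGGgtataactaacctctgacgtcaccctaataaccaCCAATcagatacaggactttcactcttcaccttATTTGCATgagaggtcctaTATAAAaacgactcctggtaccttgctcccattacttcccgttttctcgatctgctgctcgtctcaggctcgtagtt
HIST1H1C: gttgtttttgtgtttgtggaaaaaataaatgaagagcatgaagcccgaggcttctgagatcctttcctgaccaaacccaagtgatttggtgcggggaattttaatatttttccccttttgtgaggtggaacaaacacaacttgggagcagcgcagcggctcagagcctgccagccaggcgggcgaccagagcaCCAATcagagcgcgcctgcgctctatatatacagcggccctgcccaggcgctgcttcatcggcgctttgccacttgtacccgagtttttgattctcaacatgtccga
The HIST1H2BK window (chr6:27146809-27147108, minus strand) holds CCAAT 6 times, TATAAA 3 times, the octamer once and TAAACA once. The HIST1H1C window (chr6:26056421-26056720, minus strand) holds CCAAT once and none of the other motifs. CCAAT is thus the one searched motif that both windows hold.

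Other genes named because they were high or low with the vector while KO1 stood near WT were CDH17, a cadherin (1.35 ± 0.07), and TIPARP, an ADP-ribosyltransferase (1.04 ± 0.05), both higher. TIPARP belongs to the chromosome 3 run. SEPTIN11 (-0.76 ± 0.05), PHYH, a peroxisomal hydroxylase (-0.75 ± 0.06), CDCA7, a chromatin protein (-0.73 ± 0.06), CCDC88A (-0.66 ± 0.06), CERCAM (-0.61 ± 0.09) and ZDHHC8 (-0.61 ± 0.09) were lower, the last in the chromosome 22 run. CDH17 stood at 7.86, 7.07 and 7.43 FPKM in KO1R, against 2.51, 2.13 and 2.31 FPKM in WT. CDKN1A, which encodes the CDK inhibitor p21, had the same pattern, at 33.74, 34.98 and 33.99 FPKM in KO1R, against 17.92, 16.67 and 17.97 FPKM in WT (0.93 ± 0.05, adjusted p = 8.67e-08 by limma), and 16.17 FPKM in KO1. The KO2 libraries held 34.24, 33.05 and 7.41 FPKM, the first 2 at the level of KO1R, so that level was not particular to KO1R. The calls of CDKN1A and CERCAM were lost when all 5 OPM2 groups were fitted together (adjusted p = 0.151 and 0.062 by limma).

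Secretory pathway genes stayed below WT. Plasma cells depend on the unfolded protein response, in which IRE1 (ERN1) splices XBP1 and ATF6 and PERK act beside it, to fold and clear secreted antibody. Of 32 genes listed for it, all tested, 23 were lower and 2 higher in KO1R than in WT, beside 20.7% and 20.3% of all tested genes, with a median of -0.23. In KO1, 30 were lower and 1 higher, beside 19.4% and 35.7% of all, with a median of -0.45. SEL1L, which holds the ubiquitin ligase that clears misfolded proteins, stood at 49.45, 49.46 and 51.29 FPKM in KO1R, against 107, 101.83 and 96.79 FPKM in WT (-1.01 ± 0.05, adjusted p = 2.46e-08 by limma), where the KO1 libraries held 24.9 to 27.24 FPKM. KO1R lay between KO1 and WT here with no overlap. CRELD2, an isomerase-like stress protein, stood at 15.38, 16.03 and 15.83 FPKM in KO1R, against 27.02, 29.95 and 33.76 FPKM in WT (-0.89 ± 0.07).

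WFS1, a membrane protein of the reticulum, was lower by -0.88 ± 0.06 and further from WT than in KO1 (-0.65). SEC24D, a coat protein of vesicles that leave the reticulum, was lower by -0.52 ± 0.04. DERL3 and SDF2L1 (-0.84 and -0.5) lie in the chromosome 22 run and DNAJB9 and PDIA4 (-0.64 and -0.31) in the chromosome 7 run, while both higher members, SSR3 and DNAJB11 (0.32 and 0.19), lie in the chromosome 3 run. These 6 were named after their values were seen. SEL1L and CRELD2 lie in other low windows, with medians of -0.2 on chromosome 14 and -0.39 on chromosome 22. Outside all windows past the limit 17 of 22 members were lower and none higher by limma, with a median of -0.23. XBP1 itself, in the chromosome 22 run, did not pass the test (-0.04 ± 0.04, adjusted p = 0.393 by limma), although under quantile scaling it was lower (-0.16, adjusted p = 0.000398). With all 5 OPM2 groups in 1 fit, 2 members were called lower and none higher.

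Targets of ATF4, the factor of the amino acid response, were closer to WT. Of 32 listed, 26 were tested, and 12 were lower and 2 higher, beside 20.7% and 20.3% of all tested genes. Their median was -0.09 and none reached 1.5-fold. In KO1, where 19.4% of all genes were called lower, all 26 had been lower with a median of -0.53. ATF4 stood at 825.02 to 870.03 FPKM in KO1R, against 996.95 to 1016.17 FPKM in WT (-0.25 ± 0.04). Asparagine synthetase ASNS was lower by -0.3 ± 0.05. DDIT3, the stress factor CHOP, stood at 47.22, 46.36 and 48.89 FPKM in KO1R, against 53.42, 50.26 and 54.29 FPKM in WT, where KO1 averaged 19.15 FPKM. Its difference of -0.15 ± 0.05 (adjusted p = 0.0243 by limma) missed the threshold under median centring (adjusted p = 0.067) and without KO1R library 1, KO1R library 2 or WT library 3 (adjusted p 0.0715 to 0.105). With all 5 OPM2 groups in 1 fit, ATF4, ASNS and DDIT3 missed it too (adjusted p 0.624 to 0.921 by limma).

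Chaperone and ribosome genes stayed above WT. Of 26 heat shock and HSP90 genes tested out of 27, 17 were higher and none lower by limma, with a median of 0.19. Over all tested genes 20.3% were higher and 20.7% lower. In KO1, where 35.7% of all genes were called higher, 23 were higher with a median of 0.35. HSPA8, the constitutive HSP70, stood at 699.93, 674.28 and 668.44 FPKM in KO1R, against 455.04, 440.17 and 435.25 FPKM in WT (0.62 ± 0.04, adjusted p = 3.55e-07 by limma), and averaged 863 FPKM in KO1. It was the only member past 1.5-fold. DNAJB1 (0.41 ± 0.04), FKBP4 (0.45 ± 0.05) and the mitochondrial chaperonin HSPE1 (0.39 ± 0.04) were also higher. Of 41 genes of MYC and ribosome biogenesis, 24 were higher and 1 lower, beside the same 20.3% and 20.7%, with a median of 0.16. In KO1 36 were higher, beside the same 35.7% of all genes, with a median of 0.36. NOLC1, PNO1, NOP56 and NOP58, which process ribosomal RNA, were 0.31 to 0.48 higher. MYC itself stood at 188.7 to 196.74 FPKM in KO1R and 172.69 to 188.48 FPKM in WT, with a difference that did not pass the test (0.09 ± 0.04, adjusted p = 0.131 by limma). With all 5 OPM2 groups in 1 fit, 1 chaperone gene and no ribosome gene was called higher, beside 639 of all 10021 genes. Without libraries 3 of KO1EV and KO2 that fit called 19 and 25, beside 2213 of all.

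Of 31 proteasome subunits, the targets of a main class of myeloma drugs, 15 were higher and 2 lower, with a median of 0.12. Over all tested genes 20.3% were higher and 20.7% lower, the shares to set beside both lists of this paragraph. PSMD2 (0.35 ± 0.04, in the chromosome 3 run) and PSMB1 (0.29 ± 0.04) led the higher ones, and PSMC2 (-0.25 ± 0.04) lies in the chromosome 7 run. With the length trend removed 9 subunits were higher and 3 lower. Of 18 glutathione and antioxidant genes tested, 10 were higher and 3 lower. Thioredoxin TXN (0.34 ± 0.04) and GSTP1 (0.33 ± 0.04) were higher, and MGST3 (-0.41 ± 0.04) and GSTM1 lower.

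Genes of glucose use were at or above WT. Of 19 tested, 8 were higher and none lower by limma, beside 20.3% and 20.7% of all tested genes, with 1 past 1.5-fold. Enolase ENO1 stood at 884.76, 873.95 and 815.37 FPKM in KO1R, against 603.29, 619.03 and 613.58 FPKM in WT (0.49 ± 0.04, adjusted p = 4.6e-06 by limma), and was about as high in KO1, at 783.91 to 885.4 FPKM. The lactate exporter SLC16A3 stood at 5.47, 5.11 and 6.01 FPKM in KO1R, against 2.44, 2.89 and 3.34 FPKM in WT (0.75 ± 0.09). SLC16A3 lies in a window of chromosome 17 past the limit, with a median of 0.15. PKM (0.37 ± 0.05) and PGK1 (0.34 ± 0.04) were higher. Lactate dehydrogenase LDHA, at 286.3 FPKM in KO1, stood at 543.18 to 564.93 FPKM in KO1R and 495.31 to 515.96 FPKM in WT (0.14 ± 0.04, adjusted p = 0.0111 by limma). The LDHA call was lost without WT library 2 (adjusted p = 0.0613 by limma). With all 5 OPM2 groups in 1 fit, LDHA (adjusted p = 0.125) and PKM (adjusted p = 0.215) both missed the threshold by limma.

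Among 15 tested genes of the hypoxia response, 3 were higher and 5 lower. Over all tested genes 20.3% were higher and 20.7% lower, the shares to set beside each list of this paragraph. PDK1, which holds pyruvate back from the mitochondrion, was lower by -0.61 ± 0.05 and NDRG1 by -0.58 ± 0.07, while DDIT4 was 0.45 ± 0.04 higher. Oxidative phosphorylation genes (12 higher and 6 lower of 38) included NDUFB5 and NDUFA2 among the higher, at 0.45 ± 0.05 and 0.52 ± 0.08, and ATP5F1A and NDUFV2 among the lower, at -0.27 ± 0.04 and -0.28 ± 0.05. NDUFB5 lies in the chromosome 3 run and both lower genes lie in the chromosome 18 run, and with the length trend removed 6 were higher and 9 lower. Fatty acid oxidation genes were split, with 6 higher and 6 lower of 19, and 5 and 8 with the length trend removed. Beside ETFB and its partner ETFA (0.24 ± 0.05), the thiolase ACAA2 stood at 7.67, 7.16 and 6.48 FPKM in KO1R, against 16.28, 14.64 and 13.48 FPKM in WT (-0.96 ± 0.08). ACAA2 was also low in KO1, at 5.13 to 6.3 FPKM, and lies in the chromosome 18 run. DECR1, a reductase of the same pathway, was lower by -0.45 ± 0.05.

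**Figure D5:**
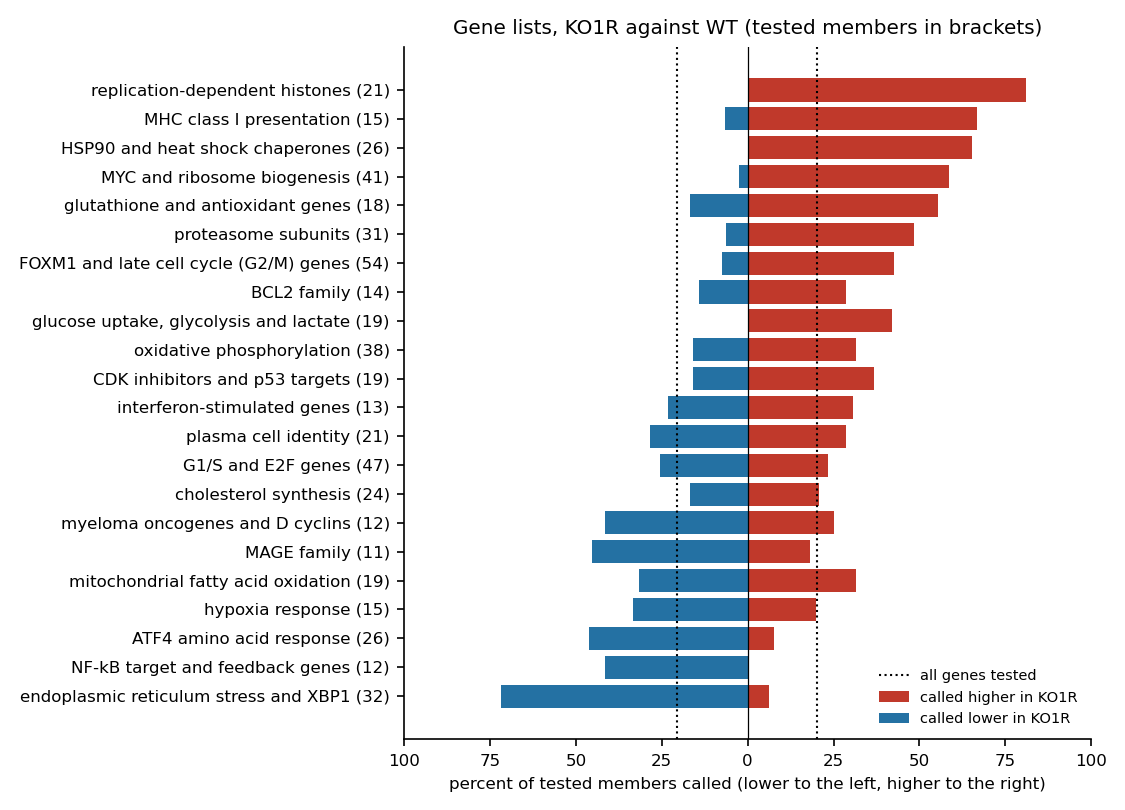
Percent of the tested members of each gene list with at least 10 of them (rows, with the number tested in brackets, sorted by median log2 fold change) called higher (right) or lower (left) in KO1R against WT at an adjusted p below 0.05, by limma. Dotted lines mark the same percentages over all tested genes, 20.3% and 20.7%. The bar of the endoplasmic reticulum list is the longest of those shown on the left, and the histone bar on the right, though 6 histone genes passed the filter only through KO1R.

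Plasma cell identity genes were split, with 6 higher and 6 lower of 21 tested, beside 20.3% and 20.7% of all tested genes. Syndecan-1 (SDC1, CD138) stood at 300.53, 302.02 and 285.1 FPKM in KO1R, against 215.12, 221.88 and 224.67 FPKM in WT (0.42 ± 0.04, adjusted p = 1.02e-05 by limma), and averaged 180.4 FPKM in KO1. CD79B, a B cell receptor subunit, was 1.28 ± 0.11 higher. The costimulatory receptor CD28 stood at 16.76, 16.49 and 16.46 FPKM in KO1R, against 31.64, 30.24 and 30.22 FPKM in WT (-0.85 ± 0.05), and GPRC5D, a surface target of myeloma therapy, was lower by -0.5 ± 0.05. IRF4, the transcription factor on which myeloma cells depend, stood at 332.1, 344.29 and 368.18 FPKM in KO1R, against 473.97, 472.6 and 474.39 FPKM in WT (-0.44 ± 0.04), as low as in KO1. Of 12 tested myeloma oncogenes and D cyclins, 3 were higher and 5 lower, beside the same shares, with NRAS among the lower (-0.27 ± 0.05). NSD2, which OPM2 overexpresses from its chromosomal translocation, did not pass the test (0.02 ± 0.04, adjusted p = 0.676 by limma). Nor did CCND2 (0.14 ± 0.05, adjusted p = 0.0536 by limma), which crossed the threshold in 6 of the alternatives.

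Survival and checkpoint genes moved singly. Of 14 tested BCL2 family genes, 4 were higher and 2 lower, beside 20.3% and 20.7% of all tested genes. BCL2 stood at 17.21, 18.47 and 18.97 FPKM in KO1R, against 31.25, 30.27 and 28.04 FPKM in WT (-0.68 ± 0.06, adjusted p = 3.72e-06 by limma), as in KO1, and lies in the chromosome 18 run, while the pro-apoptotic BCL2L11 (BIM) was 0.38 ± 0.06 higher. MCL1 did not pass the test (0.08 ± 0.05, adjusted p = 0.249 by limma). Of the 18 CDK inhibitors and p53 targets at 1 FPKM or more in all WT libraries, 6 were higher and 3 lower. Among all genes at that level 19.8% were higher and 21.2% lower. CDKN1A and CDKN2D were higher and SESN1 lower (-0.47 ± 0.06). FAS, also tested, was under 1 FPKM in WT and passed the filter through KO1R.

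Class I antigen presentation genes were mostly higher. Of 15 class I genes tested, which load peptides for CD8 T cells, 10 were higher and 1 lower, with a median of 0.23. Over all tested genes 20.3% were higher and 20.7% lower. B2M, the light chain of class I molecules, stood at 2268.75, 2172.49 and 2107.13 FPKM in KO1R, against 1676.19, 1524.86 and 1534.92 FPKM in WT (0.47 ± 0.05, adjusted p = 1.94e-05 by limma). The immunoproteasome subunit PSMB10 (0.48 ± 0.05) and HLA-C (0.33 ± 0.04) were higher too, and the trimming peptidase ERAP1 lower (-0.32 ± 0.06), the last named after its value was seen. Of 13 class II genes 3 were tested. Of these, 2 reached 1 FPKM in every KO1R but not in every WT library, so their direction is not read. HLA-DRA stood at 9.69, 10 and 10 FPKM in KO1R, against 5.37, 5.77 and 5.44 FPKM in WT (0.74 ± 0.06).

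Other immune and metabolic lists were small or split. Of the 11 interferon-stimulated genes at 1 FPKM or more in all WT libraries, 2 were higher and 3 lower. Among all genes at that level 19.8% were higher and 21.2% lower. IFITM1 (0.78 ± 0.14) was higher and IFI16 (-0.37 ± 0.09) and OAS2 (-0.25 ± 0.07) lower. MX1 and MX2 reached that level in every KO1R but not in every WT library, so their direction is not read. With all 5 OPM2 groups in 1 fit, IFITM1, IFI16, OAS2, RELB and NFKB2 missed the threshold (adjusted p 0.115 to 0.427 by limma). Of 12 NF-kB targets tested, 5 were lower and none higher by limma, where 20.7% and 20.3% of all tested genes were. Beside CCL3 these were the NF-kB subunits RELB (-0.32 ± 0.08), REL (-0.27 ± 0.07), NFKB1 (-0.25 ± 0.05) and NFKB2 (-0.25 ± 0.06). Of 24 cholesterol synthesis genes tested, 5 were higher and 4 lower, near those shares of all tested genes. INSIG1 (0.36 ± 0.04) was among the higher and PMVK (-0.41 ± 0.05) among the lower. Of 11 MAGE family genes tested, tumour antigens for the most part, 2 were higher and 5 lower, beside the same shares. MAGEC1 stood at 37.5, 39.63 and 46.61 FPKM in KO1R, against 67.38, 66.89 and 65.56 FPKM in WT (-0.68 ± 0.07). MAGEA2B (0.59 ± 0.05) has near-identical copies, so its value is uncertain.

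The same comparison in Delta47, another myeloma line, shares no library with OPM2. There KO2R, a FOXM1c vector in a Delta47 knockout clone, was set against unedited Delta47 cells, 3 libraries each, in the authors' expression value, whose unit the file does not name. Delta47 KO2R averaged 99.37 ± 4.37 (SD) for FOXM1 against 88.92 ± 1.88 in Delta47 WT, a log2 fold change of 0.16 ± 0.04, so FOXM1 lay less far above WT than in OPM2. In Delta47 66.7% of genes were called, 33.1% higher and 33.6% lower, and 5.38% were at least 1.5-fold higher and 6.5% at least 1.5-fold lower. Of 9305 genes tested in both lines, 144 were at least 1.5-fold higher in OPM2 KO1R and 429 in Delta47 KO2R. The 20 genes in both were 13.9% of the OPM2 list, where 4.61% of all 9305 genes were on the Delta47 list, and 4.66% of the Delta47 list, where 1.55% of all were on the OPM2 list. They take in ZNF257 and ZNF43, under 1 FPKM in every OPM2 WT library and at means of 0.02667 and 0.05 in Delta47 WT. Both passed the filters through KO1R and Delta47 KO2R, so their direction is not read. SLC16A3 averaged 0.9467 in Delta47 WT, near the limit. For lower genes the counts were 139 and 586. The 29 in both were 20.9% of the OPM2 list, where 6.3% of all genes were on the Delta47 list, and 4.95% of the Delta47 list, where 1.49% of all were on the OPM2 list. They take in FAM129A and OSBPL1A, which averaged 0.1933 and 0.3133 in Delta47 KO2R and passed the Delta47 filter through WT. In the opposite direction were 9 of the 144 (6.25%), where 6.3% of all genes were on the lower list of Delta47. Of the 139 it was 11 (7.91%), where 4.61% of all genes were on the higher list of Delta47.

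TSPAN7 averaged 2.12 ± 0.38 in Delta47 KO2R against 23.85 ± 0.464 in Delta47 WT (-3 ± 0.08), beside its -2.27 in OPM2. CCL3 and GLIPR1 were lower in Delta47 KO2R by -0.99 ± 0.07 and -0.96 ± 0.09. BCL2 (-1.16 ± 0.09) and CD79B (1 ± 0.05) also moved in the same direction as in OPM2. Others of the 49 were ASS1, which makes argininosuccinate (1.32 in OPM2 KO1R and 2.24 in Delta47 KO2R), ICAM3, SLC16A3 and CORO1A among the higher, and NAMPT, the rate-limiting enzyme of NAD salvage (-0.98 in OPM2 KO1R and -0.64 in Delta47 KO2R), LY9 and MYH9 among the lower. The 6 named here beyond the rule, ASS1, ICAM3, CORO1A, NAMPT, LY9 and MYH9, were picked after their values were seen. NAMPT is on chromosome 7 and MYH9 on chromosome 22, which both hold a run of lower genes in KO1R. Histone genes were split in Delta47, 9 higher and 8 lower of 31 tested, and HIST1H1C averaged 166.7 ± 10 in Delta47 KO2R against 174.3 ± 11 in Delta47 WT, a difference that did not pass the test (-0.06 ± 0.05, adjusted p = 0.315 by limma). The reticulum list was split as well, with 13 higher and 11 lower of 32.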

How the data were processed

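Poly-A RNA was sequenced as paired-end reads on a DNBseq platform, per the labels' protocols, and hg19 is the build named in the submitters' processing notes. For the aligner and the counter no source used here gives a name. OPM2 values are FPKM per gene, as deposited by the authors. The Delta47 table holds the authors' expression value, treated here as a signal because its unit is not named in the deposited table; 3 of its columns were not used. Of the 16407 OPM2 IDs, 16368 matched RefSeq, and 23 symbols that had become dates were renamed.

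Genes at 1 FPKM or more in at least 3 of the 6 libraries were fitted as log2(FPKM + 1) with limma 3.58.1 (trend and empirical Bayes, R 4.3.3), with KO1R and WT libraries only. Benjamini-Hochberg adjustment ran over all tested genes, and a gene was called where its adjusted p was under 0.05. Fold changes on this scale understate those of low genes, and SE is that of the log2 fold change. The script was tested on simulated data. Genes were named by a rule: a fixed list, the 10 largest changes each way, up to 6 each way kept from KO1, past WT or with the vector only, 4 each way back at WT, and up to 4 per list; a few genes that it names are not reported here. The members, gene lists and rule were chosen with earlier results of these data known. Motifs and guide sites were searched in RefSeq and GENCODE sequence. Alternatives were another pseudocount, other filters, quantile scaling, median centring, fits with more groups, a replicate block, removal of a length trend (added after the data were seen) and leaving out each library.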

Additional observations from a re-analysis of the deposited data

Results flagged for a closer look

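Only genes named by the rule were compared here. For 15 of them every KO1R library lay on one side of the OPM2 WT libraries while every Delta47 KO2R library lay on the other side of the Delta47 WT libraries. Over all genes tested in both lines, 443 called higher in OPM2 were called lower in Delta47, and 420 the reverse. The 443 were 23.3% of those higher in OPM2, where 34.6% of all genes were lower in Delta47. The 420 were 22.9% of those lower in OPM2, where 33.2% of all genes were higher in Delta47. In the same direction in both lines were 912 higher genes (48%) and 871 lower genes (47.5%). The difference between the lines was not tested, and the lines differ in clone, in vector level and in the unit of their table. CDKN1A had a log2 fold change of 0.93 in OPM2 and -1.31 in Delta47. Among histone genes, HIST1H2BK had 2.6 and -0.37, HIST2H2AA3 and HIST2H2AA4 both 2.57 and -0.42, and HIST2H2BE 1.14 and -0.53. MT1E had 1.9 in OPM2 and -0.58 in Delta47, RAP1GAP2 1.81 and -0.3, and PIM1 0.61 and -0.22. In the other direction, NMRAL1 had -2.7 in OPM2 and 0.43 in Delta47, GNG10 -2.68 and 0.54, ACAA2 -0.96 and 0.75, PHYH -0.75 and 0.67, CDC45 -0.68 and 0.17, PDK1 -0.61 and 0.56, and CERCAM -0.61 and 0.71. NMRAL1 and GNG10 passed the OPM2 filter through WT, so their direction in OPM2 is not read.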

How the results depend on the processing

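FOXM1 stayed above WT in KO1R under every alternative run (log2 fold change 0.6 to 0.69), and no named gene reversed. Beside 4111 calls, the fit over all OPM2 groups made 1482 (639 higher, 843 lower), and 4533 once libraries 3 of KO1EV and KO2 were left out. Leaving out each KO1R or WT library gave 3133 to 4132 calls, 1546 to 2052 higher and 1567 to 2216 lower. At 1.5-fold these fits gave 198 to 213 higher and 185 to 231 lower. Genes at least 1.5-fold lower numbered 343 with log2(FPKM + 0.1), and those higher 125 with a filter at 5 FPKM. Genes past 1.5-fold in both lines numbered 106 with that pseudocount and 32 with that filter, beside 49. Median centring gave 2417 higher and 1764 lower. The cause of these changes was not tested.

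With the replicate number as a block (replicate block) 4391 genes were called, 2177 higher and 2214 lower. Same-numbered libraries correlated by 0.224, 0.026 and 0.08 after group means were removed, so the numbers were not taken as pairs. Depth is unknown, so counting error could not be set beside any value.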
